A study of Drosophila melanogaster with 16 samples.

Results

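The genes described here encode the proteins of the mitochondrial ribosome in Drosophila melanogaster. They were taken by their symbol, mRpL or mRpS followed by a number. The name table holds 73 such symbols, and 71 of them are among the 17489 genes of the count tables. mRpS5 and mRpS34 were not analysed here. By symbol, 47 of the 71 genes are named for the large subunit (mRpL) and 24 for the small subunit (mRpS). Large and small subunit genes are meant by symbol throughout, and the place of each protein in the ribosome was not checked.

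Mitochondria keep a small genome that encodes part of the respiratory chain, and its messenger RNAs are translated inside the organelle by a ribosome of its own. The RNA of that ribosome is made in the organelle, but its proteins are encoded in the nucleus, translated on cytosolic ribosomes and imported. The large subunit joins amino acids and the small subunit reads the messenger RNA, so both sets of proteins are needed in every cell that makes respiratory complexes. In flies, a partial loss of function of tko, which encodes the S12 protein of the small subunit, gives slow growth and seizures after mechanical shock.

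RNA was sequenced from heads of adult male flies of the genotype Gr5a>UAS-Rpl3-3XFLAG, in which a FLAG-tagged RpL3, a protein of the cytosolic ribosome, is made in cells where the Gr5a driver is active. Translating mRNA affinity purification (TRAP) pulls down the tagged ribosomes with their messenger RNA, here called the Gr5a fraction, and total RNA of the same kind of lysate is the input. Gr5a marks the sweet-sensing neurons of the fly. The 16 libraries form 7 groups, and each biological replicate was made from 300 heads. Input was sequenced after 7 days on the control diet with 5% sucrose (CD7, 3 libraries) and after 7 days on the sugar diet with 30% sucrose (SD7, 2 libraries), at an age of 12 days. Libraries of the Gr5a fraction exist for CD7 (3), SD7 (2) and 3 days of sugar diet (SD3, 2 libraries, age not given in the labels). Others come from flies 19 days old that had 7 more days on the control diet, either after the control diet (CD>CD, 2 libraries) or after the sugar diet (SD>CD, 2 libraries). The SD>CD libraries carry titles that read CD>CD and were placed by their condition label. All flies carried the tag, so no library without it serves as a control for the pull-down.

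Depth ranged from 22901154 to 55290069 gene counts per library, of which 12662 to 37146 fell on the 71 genes. The labelled cells were checked with 4 receptor genes of sweet and fatty acid sensing neurons (Gr5a, Gr64f, Gr64a and Ir56d). Their summed level was 9.69 to 24.3 CPM (gene counts scaled to a common library size) in the Gr5a fraction and 0.415 to 1.10 CPM in the input. Markers of photoreceptors, glia, fat body and muscle were also present in every Gr5a library, so the fraction is not made of taste neurons alone. Marker sums were scaled by library total alone. All other CPM values were scaled by TMM over the 16 libraries, unless stated.

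The genes lie on all large chromosome arms, with 12 on 2L, 12 on 2R, 15 on 3L, 21 on 3R and 11 on the X chromosome. They are short, with a median of 783 bases of exon (327 to 2078). A coding gene on the other strand, starting within 500 bases and transcribed away from them, was annotated for 51 of the 71 (71.8%), against 24.97% of the 13679 coding genes of the tables. Counts were available for 70 of the 71. The exception, mRpL53, had 0 counts in all 16 libraries. All of its annotated exon bases overlap CG33155 on the same strand, and reads that fall on 2 genes of one strand are not counted for either. mRpL13 shares 35.2% of its exon bases with CG10602 in this way and mRpS14 shares 3.8% with CG32533, so their counts are lower limits. Among all members, 41 overlap a gene on the opposite strand, which the strand-specific counts keep apart.

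On the control diet, the 70 measured genes stood in the Gr5a fraction at similar, moderate levels. Between genes, levels were compared as CPM per kilobase of exon. The median was 10.7 CPM per kilobase, the range 3.68 to 22.9, and the upper quartile was 1.75 times the lower quartile. Over all tested genes the median was 6.71 and the upper quartile was 13.8 times the lower quartile. Of the 70 genes, 61 lay above that median. Large and small subunit genes had similar levels (medians 10.7 and 10.8 CPM per kilobase). The 87 cytosolic ribosomal protein genes had a median of 385.2 CPM per kilobase and the 82 nuclear genes of the respiratory chain had one of 52.7.

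The highest members by level in the Gr5a fraction were mRpL33 (22.9 ± 4.68 CPM per kilobase, SD, n = 3), mRpL55 (22.3 ± 5.27), mRpL28 (21.5 ± 4.04), mRpS9 (21.3 ± 1.14) and mRpL12 (19.3 ± 2.11). Their SDs overlap, so the order among these 5 is not resolved. mRpL12 forms the mobile stalk that recruits translation factors, and mRpL10, which anchors that stalk, stood at 11.4 ± 0.88 CPM per kilobase. The lowest were mRpL21 (3.68 CPM per kilobase), mRpS14 (3.88), mRpL13 (5.08), mRpL11 (5.17) and mRpS18B (5.59), and 2 of these are genes with a same-strand overlap. The order of levels was much the same in the input (Spearman correlation of 0.904 over the 70 genes, which share length, annotation and library preparation). mRpS29, the GTP-binding DAP3 protein of the small subunit, had 11.1 ± 0.51 CPM per kilobase in the fraction and 10.3 ± 1.05 in the input.

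**Figure D1:**
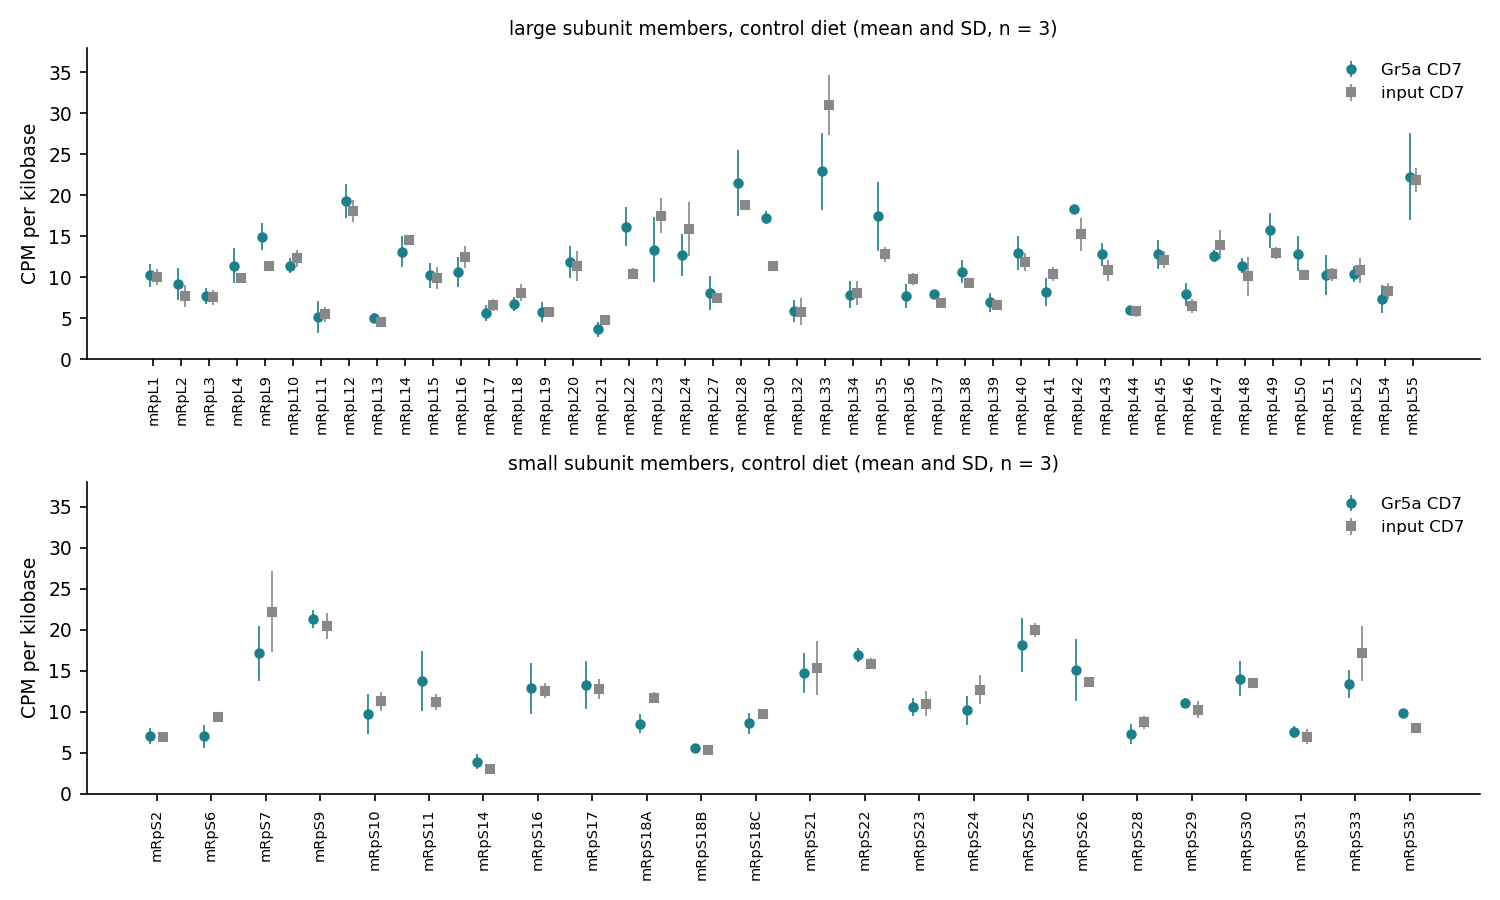
Level of each measured member in CPM per kilobase of exon on the control diet, in the Gr5a fraction (circles) and the input (squares), with mean and SD of 3 libraries. Nearly all members sit between about 5 and 20 CPM per kilobase in both kinds of library, and mRpL33 is the highest in each.

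Summed over the family, the level per library lay between 589 and 982 CPM, a ratio of 1.67. The input had 706, 632 and 655 CPM on CD7 and 692 and 724 CPM on SD7. The Gr5a fraction had 737, 589 and 714 CPM on CD7, and 638 and 783 CPM on SD7. It had 831 and 982 CPM on SD3, 628 and 796 CPM for CD>CD, and 733 and 723 CPM for SD>CD. Both SD3 libraries were above all 14 others. The ratio of the large subunit sum to the small subunit sum lay between 1.57 and 1.80, with 1.64 to 1.75 in Gr5a CD7, 1.57 and 1.62 in Gr5a SD7 and 1.73 and 1.80 in Gr5a SD3. In such bulk samples, fewer cells of a type and less RNA per cell cannot be told apart.

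**Figure D2:**
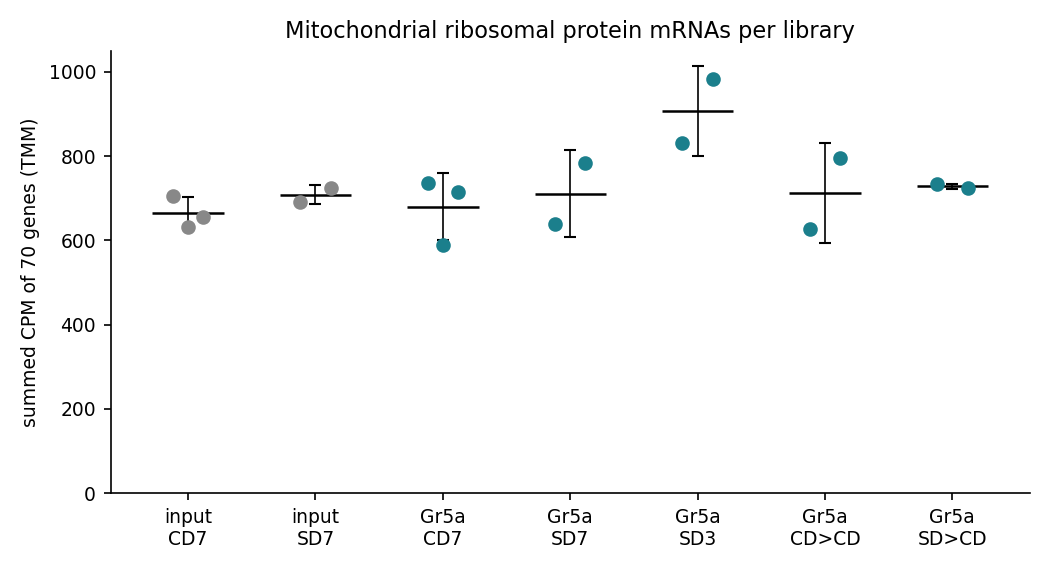
Summed CPM of the 70 measured members in each of the 16 libraries (points), by group, with the group mean (line) and SD (bar). The SD3 libraries, at 831 and 982 CPM, are the highest, and replicates of Gr5a CD7, SD7 and CD>CD spread widely.

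The Gr5a fraction was compared with the input to ask which messenger RNAs the pull-down selects. On the control diet few mitochondrial ribosomal protein genes differed between the fractions. Of 70, 3 were higher (mRpL22, mRpL30 and mRpL9) and 2 were lower (mRpS18A and mRpL33) at an edgeR adjusted p under 0.1, the threshold of the study, which is used throughout. Among all 14185 genes tested, 46.2% passed (24.3% higher and 22% lower). The members' median log2 fold change was 0.05 and that of all genes was 0.02. In absolute size the median change was 0.18 for members and 0.44 for the 12124 coding genes tested. Standard errors were almost equal (SE, median 0.19 for each). A change under 1.5-fold was estimated for 68 of 70 members and for 58.9% of coding genes.

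mRpL22, whose bacterial counterpart lines the exit tunnel of the large subunit, had 10.8, 9.59 and 10.2 CPM in the 3 input libraries and 14.4, 14.5 and 18.4 CPM in the 3 Gr5a libraries. The groups did not overlap, and the change was 0.64 on the log2 scale (SE 0.19, edgeR adjusted p 0.0234). mRpL30, another large subunit protein with a bacterial counterpart, had 8.10, 7.84 and 7.89 CPM in the input and 12.6, 11.5 and 12.0 CPM in the fraction. Its change on the log2 scale was 0.61 (SE 0.15, edgeR adjusted p 0.0102). Both were called under all 15 alternatives, each library left out in turn among them (adjusted p up to 0.089 and 0.0426). mRpL22 lies at X:16783933-16785092 and mRpL30 at X:4647871-4648646.

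The other calls were closer to the threshold. mRpL9 (3R:15330738-15331588) had 9.09, 8.73 and 9.24 CPM in the input and 12.2, 10.5 and 13.0 CPM in the fraction, a difference of 0.40 on the log2 scale (SE 0.15, edgeR adjusted p 0.0517). mRpS18A (3R:8561917-8562593) had 7.22, 6.42 and 6.81 CPM in the input and 5.62, 4.28 and 5.02 CPM in the fraction, a difference of -0.45 on the log2 scale (SE 0.17, edgeR adjusted p 0.0657). Neither gene's groups overlapped, yet each kept its call in just 1 of the 6 fits that leave out a library.

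mRpL33 (X:4321764-4322231) had 12.2, 10.7 and 9.61 CPM in the input and 9.26, 6.16 and 8.60 CPM in the fraction. Its change on the log2 scale was -0.43 (SE 0.18, edgeR adjusted p 0.0917), also lost without any of 5 of the 6 libraries. Its start lies 395 bases from that of norpA, the phospholipase C of the photoreceptors, which ran the other way on the other strand and was lower in the fraction by -0.84 on the log2 scale (edgeR adjusted p 0.00272). norpA was named after its value was seen. The 5 photoreceptor markers, norpA among them, summed to 22640 to 28100 CPM in the input and 10020 to 16780 CPM in the fraction on CD7, and their part in the value of mRpL33 was not tested. Over all 50 member and neighbour pairs with both genes tested, 17 neighbours and 4 members passed the threshold, and the Spearman correlation of their log2 fold changes was 0.12.

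Without the second Gr5a library 8 members were called, each higher, and without any one of the 3 input libraries or the third Gr5a library 2 or 3. Library numbers paired the CD7 libraries of fraction and input, and with the number as a block 13 members passed, 6 higher and 7 lower, against 58.9% of all genes. Log2 fold changes between the fractions were related to exon length (Spearman correlation of 0.36 over 70 members and 0.22 over 12124 coding genes). With offsets for the trend of each library on length, chosen after seeing the data, the median was 0.35, 27 members were called, each of them higher, and mRpL33 (0.55) and mRpS18A (0.12) turned to positive values. Unadjusted coding genes in the members' length range had a median of -0.04. For the fits with a library left out and with length offsets, the shares of all genes called are not given here.

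**Figure D3:**
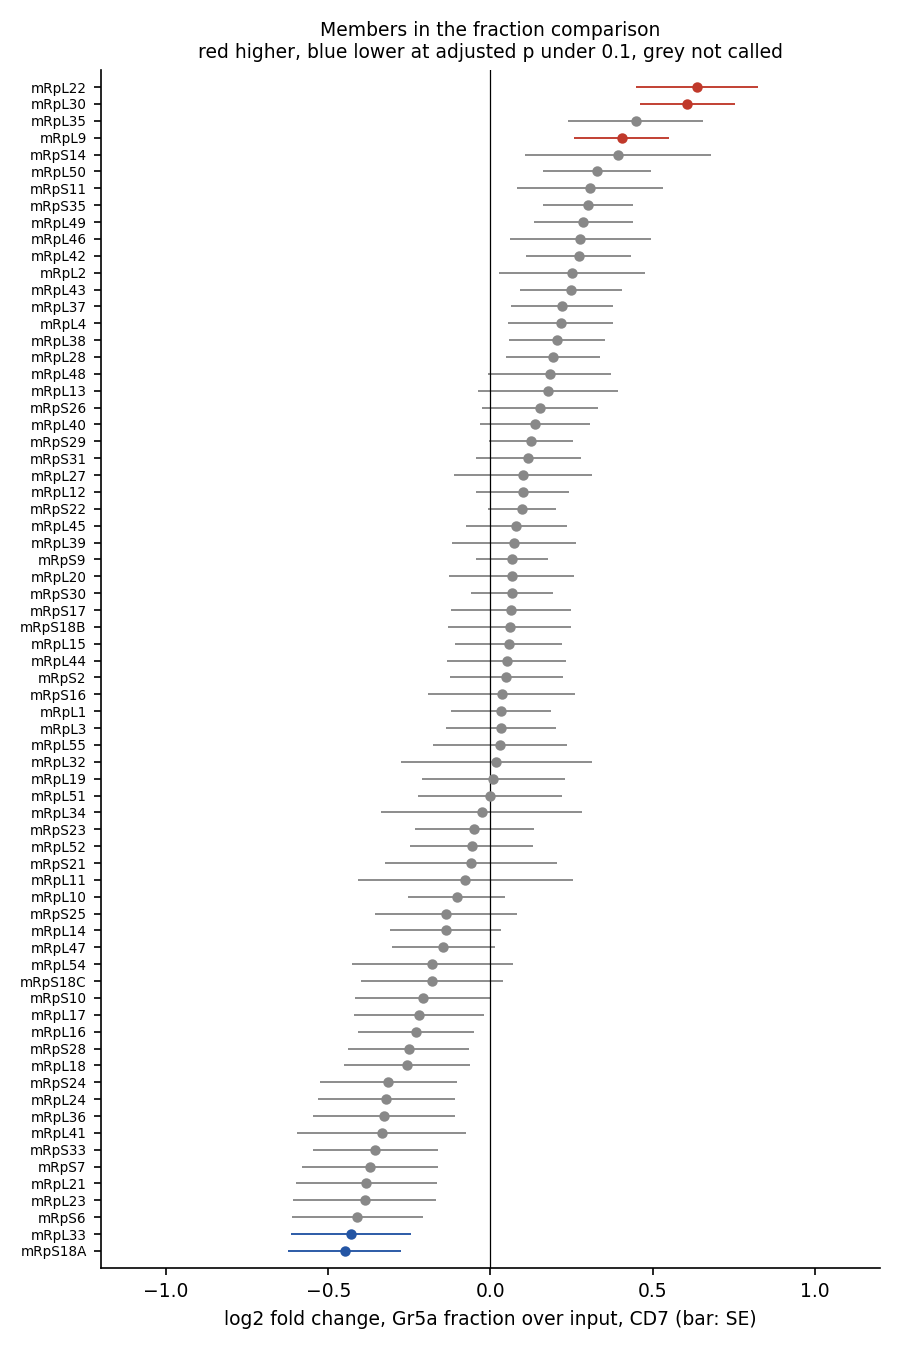
Log2 fold change of each of the 70 measured members between Gr5a fraction and input on the control diet, with SE (bars). Red points (mRpL22, mRpL30, mRpL9) were higher and blue points (mRpS18A, mRpL33) lower at an edgeR adjusted p under 0.1, and the other 65 were not called.

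After 7 days of sugar the picture between fractions was similar. mRpL33 was the only member called, against 18.7% of all genes (7.95% lower), with 12.4 and 12.4 CPM in the input and 6.98 and 7.86 CPM in the fraction. Its change on the log2 scale was -0.77 (SE 0.23, edgeR adjusted p 0.0509), and the call was lost without any of the 4 libraries. mRpL22 had 9.98 and 11.3 CPM in the input against 11.03 and 17.3 CPM in the fraction, and its groups overlapped. The members' median was 0.01 and that of all genes was 0.00. The difference between the diets in this effect was tested as an interaction, and by edgeR no member and no other gene passed (0 of 70 members at an unadjusted p under 0.05, against 9.81% of all genes, and 0 members by DESeq2). The smallest p among members was that of mRpL36, with an interaction of 0.56 (SE 0.35, edgeR adjusted p 0.535), followed by mRpL14 at -0.43 (SE 0.27, edgeR adjusted p 0.542) and mRpS24 at 0.40 (SE 0.33, edgeR adjusted p 0.643).

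In the input, 7 days of sugar changed no member's level past the threshold (edgeR, 0 of 70, against 0.0705% of all genes). At an unadjusted p under 0.05 there was 1 member, higher on SD7, against 9.91% of all genes higher, and DESeq2 called 0. The median was 0.08, with 52 members on the positive side. mRpS35, a protein known only from mitochondria, had 8.74, 9.40 and 9.36 CPM on CD7 and 10.98 and 13.0 CPM on SD7, a log2 difference of 0.40 (SE 0.15, edgeR adjusted p 0.228). mRpL14 differed by 0.40 (SE 0.19, edgeR adjusted p 0.284) and mRpL10 by 0.32 (SE 0.17, edgeR adjusted p 0.312).

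Within the Gr5a fraction, 3 days of sugar were compared with CD7. No library of 3 days on the control diet exists, so diet and days on the diet cannot be told apart in this comparison. The paper describes its control diet flies as matched in age to those on SD3. No member passed the threshold (edgeR, 0 of 70), and few genes did at all, 0.0436% of 13758, none of them higher. The members nevertheless leaned to one side. The log2 difference was positive for 68 of 70, with a median of 0.33, while the median of all genes was -0.08. Both SD3 libraries were above all 3 CD7 libraries for 48 members, against 19.7% of all genes, and none lay wholly below, against 17.8%. At an unadjusted p under 0.05 there were 15 members higher, against 5.42% of all genes, and none lower, against 9.2%. Large subunit genes had a median of 0.36 and 45 of 46 were positive, and small subunit genes had one of 0.30 and 23 of 24 were positive. DESeq2 called 1 member, mRpS6, and its share of all genes called is not given here.

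mRpS6, a small subunit protein with a bacterial counterpart, had 4.84, 3.40 and 4.99 CPM on CD7 and 7.50 and 8.05 CPM on SD3. Its log2 difference was 0.75 (SE 0.22, edgeR adjusted p 0.306). mRpL16, which lies near the catalytic centre in bacterial ribosomes, had 12.2, 9.19 and 12.9 CPM on CD7 and 14.8 and 19.2 CPM on SD3 (0.50, SE 0.18, edgeR adjusted p 0.308). mRpS26, known only from mitochondria, had 15.7, 9.48 and 12.0 CPM on CD7 and 19.5 and 18.9 CPM on SD3 (0.56, SE 0.21, edgeR adjusted p 0.311). In all 3 genes the SD3 libraries were above the CD7 libraries.

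The 3 mRpS18 genes encode relatives of 1 bacterial protein, S18, and all had values of this kind at SD3. mRpS18A had 5.62, 4.28 and 5.02 CPM on CD7 and 6.66 and 9.03 CPM on SD3. mRpS18B had 5.05, 4.61 and 4.80 CPM on CD7 and 7.50 and 9.25 CPM on SD3. mRpS18C had 4.58, 3.85 and 5.18 CPM on CD7 and 7.96 and 7.83 CPM on SD3. Their log2 differences were 0.58, 0.72 and 0.73, and none passed (edgeR adjusted p 0.324, 0.312 and 0.328). The stalk gene mRpL12 differed by 0.41 (SE 0.18, edgeR adjusted p 0.328), its partner mRpL10 by 0.20 (SE 0.17, edgeR adjusted p 0.578) and mRpS29 by 0.22 (SE 0.16, edgeR adjusted p 0.518). The largest estimate was that of mRpL54, singled out after its value was seen, with 5.83, 3.66 and 5.61 CPM on CD7 and 9.12 and 9.83 CPM on SD3 (0.85, SE 0.33, edgeR adjusted p 0.316). The members on the negative side were mRpL20 (-0.10) and mRpS28 (-0.05).

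Set against the other 9 Gr5a libraries of all diets, both SD3 libraries were highest for 25 of 70 members, against 9.84% of all genes, and lowest for none, against 7.76%. In place of CD7, the older control group CD>CD gave a median of 0.38 with 66 positive. In that contrast 4 were called (mRpL14, mRpL16, mRpL18 and mRpL28), and the share of all genes called is not given here. With SD7 as the control, chosen after seeing the data, the median was 0.28 with 63 positive and none called. These contrasts share the SD3 libraries. Over all 17 alternatives the median stayed positive, from 0.24 with length offsets to 0.45.

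Other measures differed in the same SD3 libraries. Summed messenger RNA of the mitochondrial genome was 8733 and 8916 CPM on SD3 and 11730 to 13460 CPM on CD7. The SD3 libraries were below all CD7 libraries for 13 of its 13 genes (median -0.72). By edgeR none of these passed, and 12 of 13 were lower at an unadjusted p under 0.05, against 9.2% of all genes. These messenger RNAs are translated inside the organelle, by ribosomes that do not carry the tag. On CD7 they summed to 42870 to 55740 CPM in the input. How they came to be in the Gr5a fraction was not tested. Fat body markers (5 genes) summed to 3070 and 3686 CPM on SD3 and 4944 to 8119 CPM on CD7. Neuron markers (5 genes) summed to 2911 and 2798 CPM against 3224 to 4739 CPM, and muscle markers (5 genes) to 1061 and 921 CPM against 1219 to 1686 CPM. Midgut markers (5 genes) summed to 609 to 698 CPM on SD3 and 846 to 1730 CPM on CD7, and accessory gland markers (4 of 5 listed genes found) to 75.7 to 97.4 CPM against 130 to 178 CPM. Sweet taste cell markers (4 genes) were at 15.1 and 24.3 CPM on SD3 and 10.9 to 17.96 CPM on CD7, which overlap, as did the sums of bitter cell, glia, photoreceptor, testis and blood cell markers. None of these marker genes was at 0 in all libraries. Their part in the members' values was not tested.

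Members also moved together between replicates of a single group, which have no diet difference. In the second CD>CD library 63 of 70 were above the first, with a median log2 ratio of 0.37. The second SD7 library exceeded the first at 63 members (median 0.31), and the second SD3 library exceeded the first at 61 (median 0.24). The second CD7 library was below the first at 62 members (median -0.38). The SD>CD pair, with 32 members higher in the second and a median of -0.01, and CD7 libraries 1 and 3, with 30 members higher in library 3 and a median of -0.05, showed no such shift. The shifts in the other pairs named, 0.24 to 0.38 in size, were near the median difference of 0.33 between SD3 and CD7. The 7 replicate pairs of the Gr5a fraction were not independent, since each of the 3 CD7 libraries enters more than 1 of them. In 6 of the 7, the library with the higher member sum also had the higher sum of sweet taste cell markers. The same held for glia markers in 6. Neuron markers and accessory gland markers ran opposite in 6 of 7, and the other 8 summed measures compared gave the same order in 2 to 5 of 7 pairs or, for shares of antisense and unassigned reads, in 1 of 5. Member sums were scaled by TMM here and marker sums by library total. Whether any of these measures sets the member level was not tested.

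**Figure D4:**
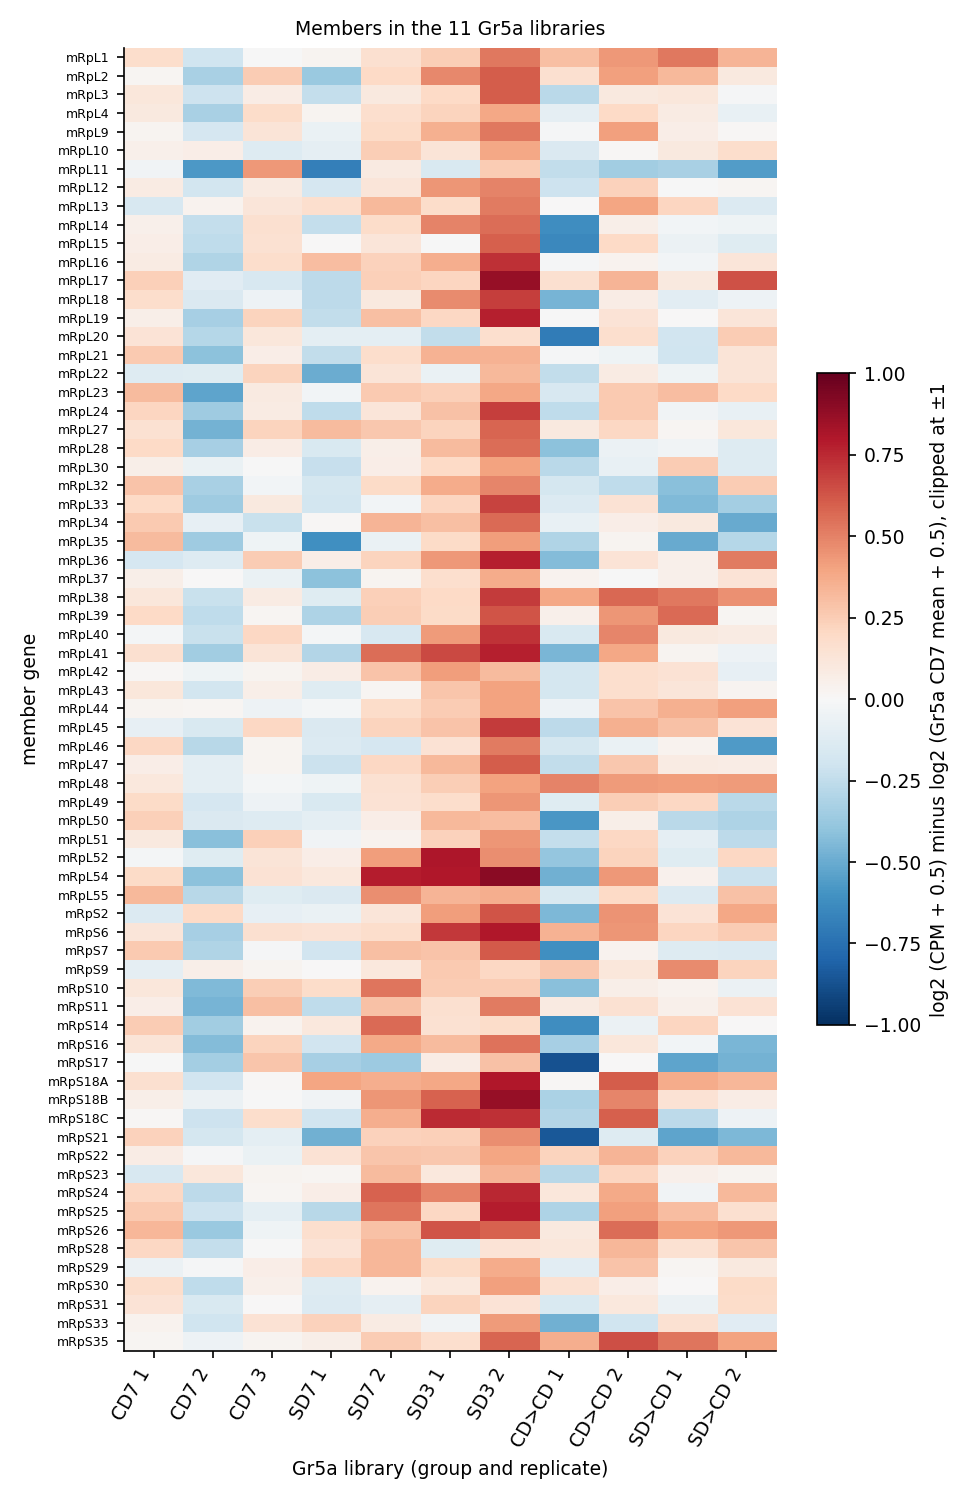
Log2 level of the 70 measured members (rows) in the 11 Gr5a libraries (columns) relative to the mean of the 3 CD7 libraries, with 0.5 CPM added and colours clipped at ±1. Both SD3 columns are mostly red, the second throughout, and columns of one group such as CD>CD 1 and CD>CD 2 differ as whole blocks.

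After 7 days of sugar the members lay closer to CD7 than after 3 days. No member was called against CD7 (edgeR, 0 of 70, 0 by DESeq2), and by edgeR 0% of all genes passed. The paper, by DESeq2 at the same threshold, reported many genes as changed in this fraction after 3 and after 7 days of sugar. At an unadjusted p under 0.05 there were 0 members, against 5.61% of all genes. The median was 0.09, with 51 positive. It was 0.03 for large subunit genes (31 of 46 positive) and 0.20 for small subunit genes (20 of 24 positive), and this difference between subunits was not tested. All 70 point estimates were under 1.5-fold. The second SD7 library carried most of it, since the median was -0.03 without that library and 0.20 without the first. Without the second CD7 library it was 0.00. mRpS22, known only from mitochondria, had 23.9, 22.4 and 21.6 CPM on CD7 and 25.02 and 27.5 CPM on SD7 (0.24, SE 0.12, edgeR adjusted p 0.905). mRpS29 had 15.4, 15.8 and 16.8 CPM on CD7 and 18.6 and 20.3 CPM on SD7 (0.30, SE 0.16, edgeR adjusted p 0.905). mRpS18A differed by 0.44 (SE 0.25, edgeR adjusted p 0.921).

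The return from sugar to the control diet was compared with continuous control diet in the older flies. None of the 70 members was called (edgeR, and 0 by DESeq2), while 13.3% of all genes were (13.1% lower in SD>CD). At an unadjusted p under 0.05 there were 0 members, against 18.3% of all genes. The members' median was 0.05 and 45 were positive. That direction rested on the control libraries. Without the second CD>CD library the median was 0.33 with 66 positive, and without the first it was -0.16 with 13 positive. In the first CD>CD library 58.4% of listed counts named no gene, the highest share of any library that lists them, against 39.7% in the second. The part of this in the members' values was not tested. mRpS33 had 4.56 and 5.64 CPM in CD>CD and 7.33 and 6.002 CPM in SD>CD (0.43, SE 0.26, edgeR adjusted p 0.5). mRpS9, whose bacterial counterpart reaches the tRNA site, had 33.3 and 29.9 CPM against 38.4 and 32.3 CPM (0.21, SE 0.14, edgeR adjusted p 0.548). mRpL30 differed by 0.30 (SE 0.19, edgeR adjusted p 0.55). With CD7 as the control group 6 members were called, all higher (mRpL1, mRpL38, mRpL48, mRpS9, mRpS22 and mRpS35), against 43.5% of all genes. Midgut and accessory gland markers summed to 6.31 and 13.3 CPM and to 0.547 and 0.699 CPM in SD>CD, and to 445 and 1035 CPM and 37.8 and 59.5 CPM in CD>CD, and their part was not tested.

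The control groups of both ages were set side by side last. None of 70 members was called between CD>CD and CD7 (edgeR), against 14.1% of all genes. At an unadjusted p under 0.05 there were 3 members, each higher, against 12.6% of all genes higher. DESeq2 called 2 of them, mRpL48 and mRpS35, both known only from mitochondria. mRpL48 had 9.78, 8.43 and 8.89 CPM on CD7 and 12.9 and 12.3 CPM in CD>CD (0.42, SE 0.14, edgeR adjusted p 0.103). mRpS35 had 11.4, 10.8 and 11.4 CPM on CD7 and 14.6 and 17.9 CPM in CD>CD (0.47, SE 0.17, edgeR adjusted p 0.113). mRpL38 differed by 0.45 (SE 0.18, edgeR adjusted p 0.148). For these 3 genes the SD>CD libraries, at 12.2 and 12.3, 16.5 and 15.0, and 21.8 and 20.7 CPM, were also above every CD7 library. The median over members was -0.02, and it was 0.18 without the first CD>CD library. Without the second CD>CD library the median was -0.29.

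**Figure D5:**
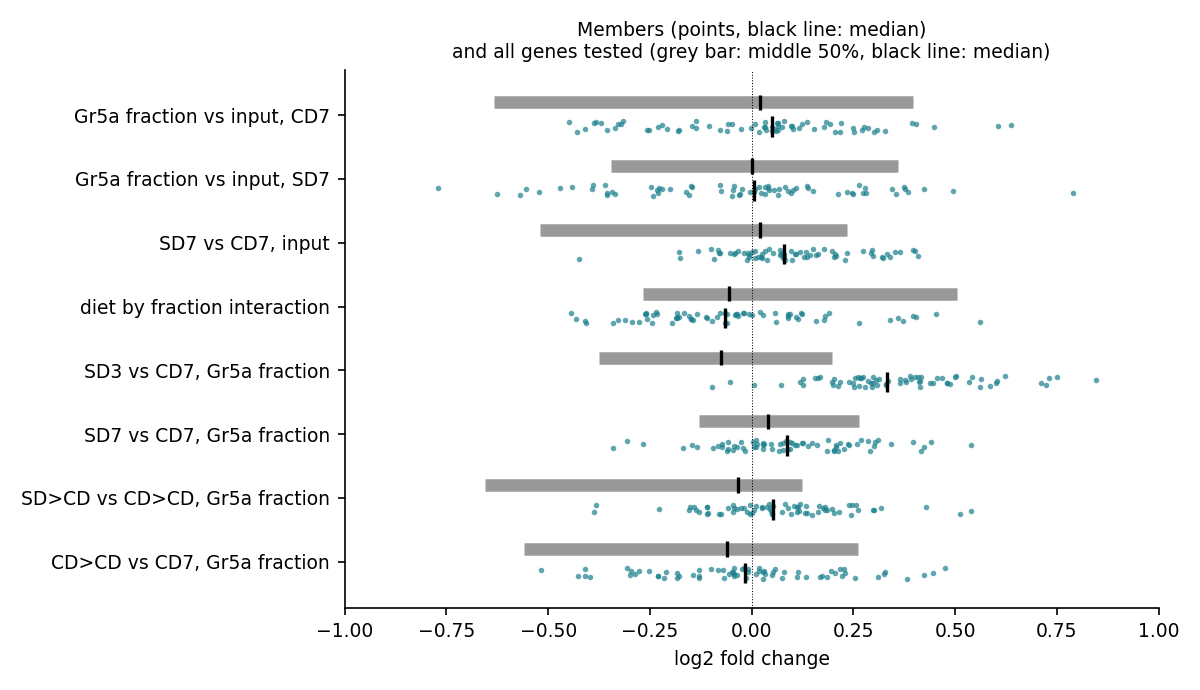
Log2 fold changes of the 70 measured members (points, with their median) beside the middle 50% of all tested genes (grey bar, with the median) in the 8 comparisons. For SD3 against CD7 the median of members is 0.33 and that of all genes -0.08, and in the other comparisons the member medians lie between -0.07 and 0.09.

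Other genes of mitochondrial gene expression were measured beside the family. The protein genes of the mitochondrial ribosome whose symbols do not follow the pattern, tko (S12) and bonsai (S15), were not called between fractions on CD7 (-0.21 and 0.15). For SD3 against CD7 they gave 0.57 (SE 0.15, edgeR adjusted p 0.306) and 0.35 (SE 0.17, edgeR adjusted p 0.367), on the same side as 68 of the 70 members. In CD>CD against CD7, tko was higher by 0.52 (SE 0.15, edgeR adjusted p 0.071).

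Between fractions on CD7, other lists were set beside the 5 calls among 70 members, with 46.2% called among all genes. Of 9 mitochondrial translation factors, 1 rose and 2 fell, with mEFTu1 at 0.30 (SE 0.12, edgeR adjusted p 0.0707), mEFTs at -0.53 (SE 0.10, edgeR adjusted p 0.00318) and mEFTu2 at -0.46 (SE 0.15, edgeR adjusted p 0.0346), all elongation factors. Of 15 mitochondrial tRNA synthetases, 1 rose and 3 fell, among them LeuRS-m at 0.38 and TrpRS-m at -0.84. Of 17 genes of mitochondrial DNA and RNA expression, 6 rose and 1 fell, with mldr at 0.71 and Lrpprc2 at 0.66 the largest increases and the protease gene Lon at -0.20 the decrease. Both mitochondrial ribosomal RNAs, mt:lrRNA and mt:srRNA, were lower (-2.55 and -2.83), in libraries from which ribosomal RNA had been depleted. All 13 messenger RNAs of the mitochondrial genome were lower, by a median of -1.97, and 27 of 82 nuclear respiratory chain genes fell while 2 rose. For SD3 against CD7, no gene of these lists was called, and the median was 0.03 for translation factors, 0.15 for synthetases, 0.08 for DNA and RNA expression, 0.19 for nuclear respiratory chain genes and -0.07 for cytosolic ribosomal proteins, each below the 0.33 of the family. The nuclear respiratory chain genes leaned to the same side as the family, with 62 of 82 positive and both SD3 libraries above all 3 CD7 libraries for 45 of 82. Differences between the lists were not tested.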

How the data were processed

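RNA-seq counts were used from 16 libraries of fly heads, 11 of the Gr5a fraction and 5 of input. The authors aligned reads to dm6 (BDGP6) by STAR, and the deposited values are raw counts for each gene and library, not normalized. Their methods name HTSeq for counting, but the deposited tables have the layout of STAR's gene counts. The submitters' processing notes also name SAMtools 1.4 and DESeq2 1.18.0. Libraries were made with a kit that depletes ribosomal RNA. Same-strand counts were used, which held 93.6% to 97.3% of strand-specific gene counts. The table of Gr5a CD7 replicate 1 has a single column, taken as same-strand: over 251 genes that tell the columns apart, its median absolute log2 distance to the same-strand column of another CD7 library was 0.831, against 3.83 to the unstranded column. Rows that name no gene held 32.1% to 58.4% of counts in the libraries that list them and were left out. Multiply mapped reads are not in these counts.

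Counts were tested with edgeR 4.0.16 (R 4.3.3): filterByExpr, TMM, glmQLFit with a prior count of 0.125, glmQLFTest, and Benjamini-Hochberg adjustment over all tested genes, with calls at an adjusted p under 0.1. The SE is the absolute log2 fold change over the square root of F. The 10 libraries of day 7 entered the fraction, input and interaction tests, and the 11 Gr5a libraries the diet tests. DESeq2 1.42.0 was an alternative, beside other columns, filters, scalings, control groups and left-out libraries. Shares of all genes called by DESeq2 are not given here. Positions and exon lengths are from the Ensembl annotation of BDGP6, and symbols from a gene name table (17215 of 17489 identifiers matched).

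Named members were the 5 called with the largest change in each direction, otherwise the 3 with the smallest p, the 5 highest and 5 lowest by level, and mRpS18A, mRpS18B, mRpS18C, mRpS29, mRpL10, mRpL12, tko and bonsai. From the other lists, up to 2 called genes per comparison and direction were named. The members, lists and rules were chosen with earlier results of these data known. Replicate numbers come from the titles. They pair the CD7 libraries of fraction and input, whose same-numbered deviations from the group means correlated at 0.347, 0.233 and 0.284, and no other groups. Replicates of a group were distinct libraries (chi-square per degree of freedom of 10.7 to 275).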

Additional observations from a re-analysis of the deposited data

How the results depend on the processing

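For fraction against input on CD7, 5 members were called, and 2 to 8 when single libraries were left out, 13 with the replicate block and 27 with length offsets. On SD7 the 1 call became 2 with unstranded counts, with at least 10 counts in every library and without genes over 1% of a library, 3 with DESeq2, 0 on the groups compared alone, 0 with the replicate block and 0 to 1 with single libraries left out. Same-numbered libraries of SD7 correlated at -0.271, and the crossed replicate block, chosen after seeing the data, called 1. For SD3 against CD7 the 0 calls became 1 with DESeq2 and 4 with CD>CD as control. For SD>CD against CD>CD they became 6 with CD7 as control, 9, each lower, with SD3 as control, and 2 with length offsets. For CD>CD against CD7 they became 2 with DESeq2, 2 with at least 10 counts in every library and 12 with length offsets. SD3 as control and length offsets were chosen after seeing the data. Direction reversed with length offsets for mRpS18A (0.1159) and mRpL33 (0.546) on CD7 and mRpS24 (-0.0476) in the interaction, and with SD3 as control for mRpS33 (-0.1366) and mRpL30 (-0.1705) in SD>CD. The causes were not tested. Beside the counts of this section, shares of all genes called are not given. By library total alone, the mean member sum of input SD7 was 674 in place of 708 CPM. Among group counts and sums, 104 values stayed the same and 26 moved. A count stayed the same if it was equal or, with neither count at 0, within 1.5-fold. A sum stayed the same if it moved by no more than its group's SD. Among named members and medians, 428 values stayed the same, 26 medians moved, and 24 member values lost and 11 gained a call. A named member stayed the same if it kept its direction and side of the threshold. A median did so if it moved by no more than the SD over the fits with a library left out. Outside the fraction comparisons the replicate block changed no call. No paired analysis was possible for SD>CD because its numbers only name the libraries.

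Most groups held 2 libraries, and the median SE of members was between 0.19 and 0.30 on the log2 scale. The date of library preparation is not given in the sources used here for any group, and its part in differences between groups was not tested.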
